A study of Mus musculus with 8 samples.

Results

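BMEL cells, a bipotential line derived from embryonic mouse liver, were transfected with a GRHL2 plasmid or with an empty pcDNA3 plasmid, and 60 of the 18671 genes in the deposited expression table formed the group described here. They were chosen by their measured values in this very contrast. The highest of the 4 GRHL2 samples had to lie below the lowest of the 4 control samples, and the difference of the group means (GRHL2 minus control) had to be -0.5 or lower on the log2 scale of the table. Set names and name stems of interferon, integrated stress response, amino acid, chemokine, collagen, integrin, protease and cytochrome genes were left out, and other genes of these families could still be chosen. Both criteria were met by 69 genes (0.37% of the table), and the 9 left out by name were Ifit3, Ifit1, Ppp1r15a, Ifit3b, Ddit3, Cxcl10, Slc7a11, Trib3 and Ifit1bl1. As the values fixed the membership, the falls of the 60 genes are given as a description and carry no test.

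The cells were kept on collagen with IGF2, EGF and insulin in the medium and harvested 48 h after transfection, with 4 replicates per plasmid numbered 1 to 4 in each group. The GRHL2 plasmid held the human GRHL2 coding sequence with a Flag tag under the EEF1A1 promoter, followed on the same transcript by EGFP, whereas the control plasmid held neither insert. The groups therefore differed by more than GRHL2 itself, and effects of GRHL2, of EGFP and of the vector cannot be told apart. Values are regularised logarithms (rlog) of read counts that the authors related to transcript length. They are read here as log2 values from which log2 length was subtracted, since the methods speak of a division. Levels set side by side between genes rest on this reading, which was not tested, and 1 unit is then a doubling before shrinkage. Differences of 1 gene between samples do not need the length. The rlog draws the values of a gene with few reads together, and differences of low genes are understated. As such values do not keep the read totals, the depth behind each sample is unknown and intervals from counts were not computed.

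Grhl2 was read first as a check of the labels. GRHL2 replicates 1 to 4 lay at 6.30, 6.96, 5.65 and 6.05 and control replicates 1 to 4 at 4.68, 4.57, 4.42 and 4.44, without overlap. Of 12 BMEL identity markers in the table, 1 was called lower (Afp) and 3 higher (Krt7, Epcam and Cdh1). No macrophage, endothelial, stellate or erythroid marker was called lower, 2 stellate and 2 erythroid markers were called higher, and 3, 1, 4 and 3 of the 8 genes on these lists were not among the genes of the table. The summed level (2 to the power of each value) of the macrophage markers ran from 92.8 to 105 in control and from 105 to 111 in GRHL2 samples, against 1.09e+05 to 1.24e+05 and 1.26e+05 to 1.38e+05 for the BMEL identity markers. The endothelial markers summed to 77.2 to 89.4 and 82.8 to 96.8, the stellate and fibroblast markers to 45.1 to 54.7 and 49.8 to 60.1, and the erythroid markers to 36.5 to 38.2 and 40.5 to 42.3. The part of such cells in the falls was not tested, and in bulk RNA fewer cells of a type and less RNA per cell cannot be told apart.

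As background, many genes of this group belong to responses that cells switch on within hours. The transcription factor p53 induces genes that stop division or start cell death, and Mdm2 is both its target and the ligase that marks it for destruction. Small nucleolar RNAs (snoRNAs), which guide the chemical modification of ribosomal RNA, are cut from the introns of host genes, several of which code for no protein. The CLK kinases and SR-rich proteins of nuclear speckles govern splicing, and their own transcripts are often kept in the nucleus with introns still in place.

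Across the 60 genes the median difference was -0.63, with a range from -0.50 to -1.14. Only Plk2, Mdm2 and P2rx7 fell by at least 1. A further 12 genes fell by 0.75 to 1, 21 by 0.6 to 0.75 and 24 by 0.5 to 0.6. The genes had a median level over the 8 samples of 8.48 against 6.45 for all genes. The lowest and highest levels were 4.93 (Tmem236) and 12.35 (Plk2). As the rlog understates differences of low genes, such genes could less easily reach the threshold. The part of this in the higher level was not tested. All 60 passed limma (adjusted p under 0.05), where 5.91% of the table was called lower and 10.5% higher; with the replicate number as a block these shares were 13.9% and 18.2%. These are counts of 1104 and 1957 genes, which ran over the settings tried from 690 (without GRHL2 replicate 3) to 2589 (with the block) and from 715 (genes with a mean value of at least 5) to 3396 (with the block). Because the rule used the same contrast, nothing is read from this count. For comparison, 9.47% of the table had all GRHL2 samples below all control samples.

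**Figure D1:**
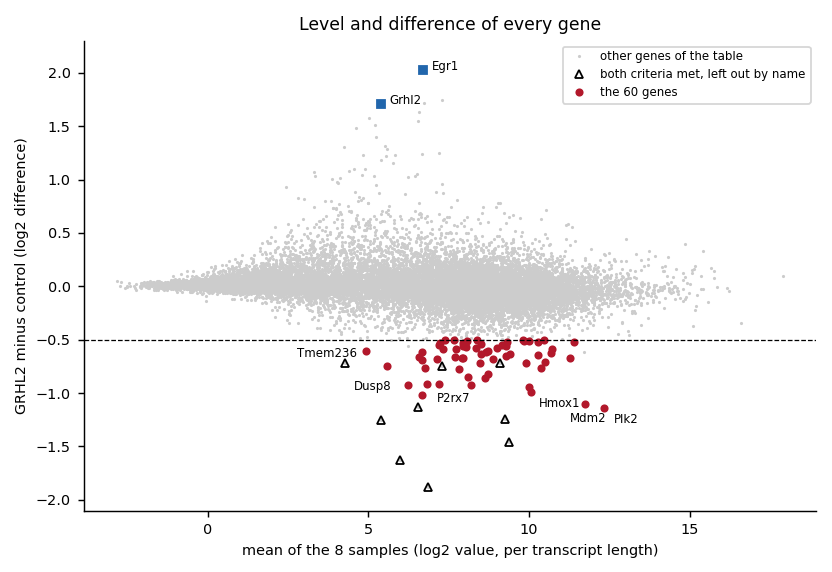
Mean log2 value of the 8 samples (x axis) against the difference GRHL2 minus control (y axis, log2) for each of the 18671 genes. The 60 genes (red) lie below the dashed threshold at -0.5 with levels from 4.93 to 12.35, the 9 genes left out by name (triangles) meet the same criteria, and Grhl2 and Egr1 (squares) are shown for scale.

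The gap between the lowest control and the highest GRHL2 sample was 0.37 at the median. It was widest for Arrdc4 (0.71) and Hmox1 (0.70) and narrowest for Serpinb9b (0.004) and Utp20 (0.054), so that the groups of these last genes nearly touched. Just inside the threshold lay Rsrc2 (-0.502), Rap2a (-0.501) and Zfp958 (-0.501), and just outside it lay Tatdn1 (which rounds to -0.50), Fam13b (-0.499) and Zfp655 (-0.498). Ptgs2 (-0.617) and Siglecg (-0.555) fell as far but had overlapping groups.

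The spread inside the groups was uneven, and 1 library stood apart. Control replicate 2 held the highest control value in 57 of the 60 genes (95%), whereas it was the highest control sample for 37.9% of all genes. The rule used these same control values, so a gene raised in 1 control sample was more easily chosen. Part of this share was thus set by the choice of genes, and how much was not tested. Among the GRHL2 samples replicate 2 was also the highest, for 44 of the 60 genes (73.3%, against 36.6% of all genes). The median SD of the 60 genes was 0.20 in control and 0.11 in GRHL2 samples, against 0.060 and 0.059 over all genes. All genes had a lower median level, at which the rlog draws values together, and the SD without replicate 2 was not computed. Without control replicate 2 the median difference was -0.54, with a range from -0.39 to -0.98, and 39 genes still reached -0.5. Without replicate 2 of both groups it was -0.57, with 44 genes at -0.5 or lower.

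**Figure D2:**
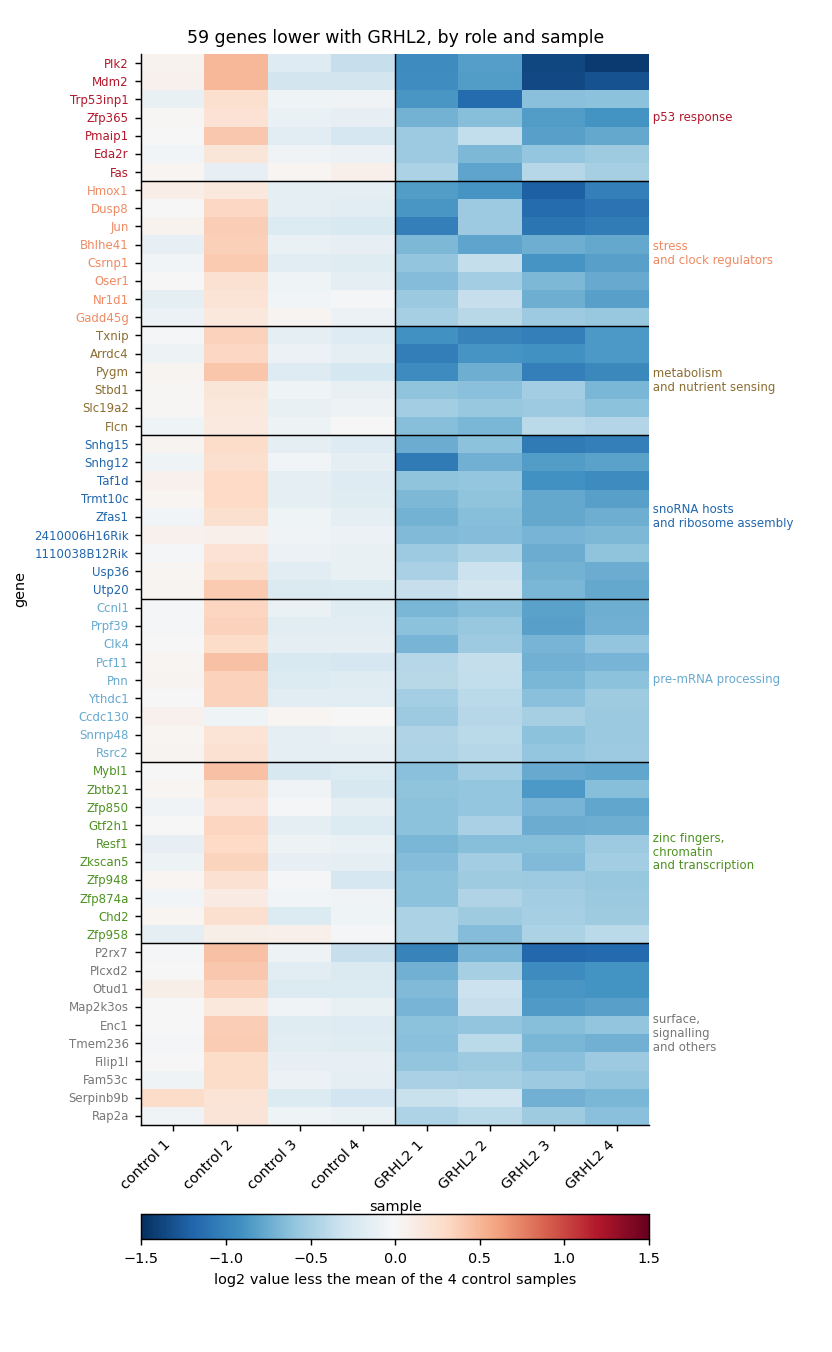
Log2 value of 59 of the 60 genes (rows, by role and then by size of the fall) in each of the 8 samples (columns), less the mean of the 4 control samples. Blue cells are lower and red cells higher; all GRHL2 columns are blue, and the column of control 2 is the reddest.

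The fall within pairs of equal number was larger in replicates 1 and 2 (median -0.70) than in replicates 3 and 4 (median -0.57), and this held for 52 of the 60 genes. Trp53inp1 showed the widest distance, with -1.08 in replicates 1 and 2 and -0.57 in replicates 3 and 4. Flcn had -0.70 and -0.37, and Enc1 -0.79 and -0.43. Nr1d1 went the other way, with -0.49 and -0.74, as did Dusp8 with -0.87 and -0.98.

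**Figure D3:**
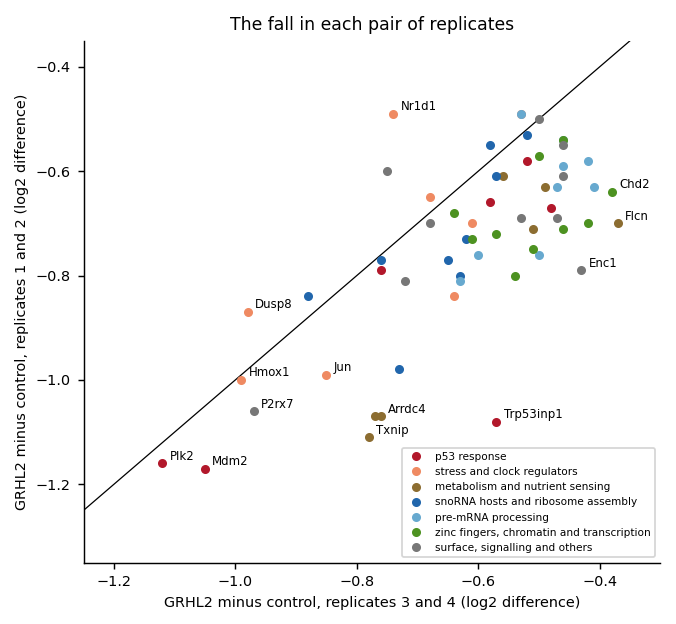
Difference GRHL2 minus control (log2) in replicates 3 and 4 (x axis) and in replicates 1 and 2 (y axis) for each of the 60 genes, coloured by role. Points below the diagonal, 52 of 60, fell further in replicates 1 and 2; Trp53inp1 lies far below it and Nr1d1 above it.

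The p53 response contributed 7 genes (Plk2, Mdm2, Trp53inp1, Zfp365, Pmaip1, Eda2r and Fas), with a median difference of -0.77. Plk2, a polo-like kinase of centriole duplication (ENSMUSG00000021701; chr13:110395046-110400844), had the largest fall of the whole group. Its values were 11.98, 12.09, 11.56 and 11.49 in GRHL2 samples 1 to 4 and 12.97, 13.42, 12.73 and 12.57 in control samples 1 to 4, numbered by replicate. The mean went from 12.92 ± 0.37 (SD, n = 4) in control to 11.78 ± 0.30 (SD, n = 4) in GRHL2 samples, 45.3% of the control level on this scale. Replicates 1 and 2 were high in both groups, and the nearest samples of the groups were 0.48 apart. The 250 bases before its RefSeq start (GRCm38.p6, chr13:110394794-110395043) are shown because they hold a cAMP response element, an 8-base palindrome (capitals) bound by CREB and ATF factors.
Plk2: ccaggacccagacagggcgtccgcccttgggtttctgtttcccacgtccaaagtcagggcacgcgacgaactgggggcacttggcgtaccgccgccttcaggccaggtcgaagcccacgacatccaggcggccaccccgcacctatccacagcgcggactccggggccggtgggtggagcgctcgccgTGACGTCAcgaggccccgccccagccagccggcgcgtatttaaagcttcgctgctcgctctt

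Mdm2, the ubiquitin ligase of p53, was the runner-up (chr10:117688875-117710758). Its values were 11.36, 11.45, 10.94 and 10.98 in GRHL2 samples 1 to 4 and 12.35, 12.79, 12.01 and 12.01 in the control samples. Replicates 1 and 2 were again the higher ones of each group, and the difference was -1.11 (standard error 0.23). Trp53inp1, a p53-induced nuclear and autophagy protein, had values of 8.25, 7.96, 8.49 and 8.51 in GRHL2 samples 1 to 4 and 9.01, 9.36, 9.06 and 9.07 in the control samples. Here GRHL2 replicate 2 was the lowest sample rather than the highest of its group. Zfp365, a zinc finger gene whose human counterpart is induced by p53, had 7.50, 7.57, 7.37 and 7.31 in GRHL2 samples 1 to 4 and 8.23, 8.43, 8.11 and 8.09 in the control samples. The difference was -0.77 (standard error 0.097), with an SD of 0.12 in GRHL2 and 0.15 in control samples. Pmaip1, which codes for the cell death protein Noxa, had a difference of -0.62, the ectodysplasin A2 receptor gene Eda2r one of -0.58 and the death receptor gene Fas one of -0.55. Fas was among the 3 genes in which control replicate 2 was not the highest control sample.

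Counts on the lists are read against the whole table, of which limma called 5.91% lower and 10.5% higher. With the block these shares were 13.9% and 18.2%. Some genes, such as Btg2, Gadd45a and Gdf15, were counted on more than 1 list. On a list of 30 p53 response genes, the other 23 had a median difference of -0.23. Limma called 11 of them lower (47.8%) and 1 higher. Lower were the growth arrest gene Gadd45a (-0.50, adjusted p = 0.00871), the Puma gene Bbc3 (-0.49, adjusted p = 0.00293), the antiproliferative gene Btg2 (-0.43, adjusted p = 0.00411) and the DNA polymerase gene Polk (-0.40, adjusted p = 0.0262). The junction gene Perp was higher (0.18, adjusted p = 0.0329). Without control replicate 2, limma called 11 of the 23 lower and 0 higher. Cdkn1a, the cell cycle inhibitor most often used to read p53 activity, had a difference of -0.14 that did not pass (adjusted p = 0.139), but passed with the replicate block (adjusted p = 0.0117).

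Stress and clock regulators made up 8 genes, Hmox1, Dusp8, Jun, Bhlhe41, Csrnp1, Oser1, Nr1d1 and Gadd45g, with a median difference of -0.70. Hmox1, the haem oxygenase that oxidative stress induces (chr8:75093621-75100589), had values of 9.74, 9.69, 9.36 and 9.55 in GRHL2 samples 1 to 4 and 10.68, 10.74, 10.45 and 10.44 in the control samples. It was among the steadiest large falls, from 10.58 ± 0.16 (SD, n = 4) to 9.59 ± 0.17 (SD, n = 4), with nearly the same difference in replicates 1 and 2 (-1.0) and in replicates 3 and 4 (-0.99). Dusp8, a phosphatase of the JNK and p38 kinases, had 5.82, 6.15, 5.53 and 5.58 in GRHL2 samples 1 to 4 and 6.70, 7.0, 6.56 and 6.52 in the control samples. Replicate 2 was the highest sample of each group. The 250 bases before its RefSeq start (chr7:142095285-142095534, minus strand) are printed because they hold the cAMP response element in 2 copies. They lie inside the gene as GENCODE annotates it (chr7:142079490-142095843), whose start is further upstream.
Dusp8: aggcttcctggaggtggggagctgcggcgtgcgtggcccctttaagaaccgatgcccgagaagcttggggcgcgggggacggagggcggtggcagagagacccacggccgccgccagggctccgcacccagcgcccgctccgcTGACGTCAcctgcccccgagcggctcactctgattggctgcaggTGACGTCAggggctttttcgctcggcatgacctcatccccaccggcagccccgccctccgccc

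Jun, a subunit of the AP-1 factor and a substrate of JNK, had 7.65, 8.13, 7.58 and 7.62 in GRHL2 samples 1 to 4 and 8.72, 9.04, 8.47 and 8.44 in the control samples. GRHL2 replicate 2 stood apart from the other GRHL2 samples, which lay within 0.07 of each other. Bhlhe41, a repressor in the circadian clock, had 5.29, 5.17, 5.23 and 5.19 in GRHL2 samples 1 to 4 and 5.84, 6.32, 5.86 and 5.84 in the control samples. Here control replicate 2 stood alone, and without it the difference was -0.62 against -0.74 with all samples. Csrnp1, a cysteine- and serine-rich nuclear protein gene, had 7.43, 7.66, 7.13 and 7.21 in GRHL2 samples 1 to 4 and 7.98, 8.41, 7.86 and 7.84 in the control samples. Replicate 2 was the highest of each group. The oxidative stress responsive gene Oser1 had a difference of -0.65, the clock repressor gene Nr1d1 (REV-ERB alpha) one of -0.62 and the stress sensor gene Gadd45g one of -0.51. Of its exonic bases, Bhlhe41 shared 19% with Gm43909, Nr1d1 8.55% with Thra, Jun 7.28% with Junos and Csrnp1 6.45% with 1700019L13Rik, each on the opposite strand. Reads were counted without regard to strand and in union mode, in which a read that touches exons of 2 annotated genes counts for neither, so these genes were measured on their other exonic bases wherever both partners were annotated.

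Of 26 further genes on a list of immediate early and stress transcription factors, limma called 3 lower and 3 higher, or 12 and 6 with the replicate block, and their median difference was -0.12. Egr1 rose by 2.03 (adjusted p = 0.00124), with 8.04, 8.38, 7.25 and 7.23 in GRHL2 samples 1 to 4 and 6.06, 6.02, 5.37 and 5.34 in the control samples. Egr2 (0.62, adjusted p = 0.00388) and Maff (0.41, adjusted p = 0.0484) were also higher, whereas Btg2 (-0.43, adjusted p = 0.00411), Klf10 (-0.27, adjusted p = 0.0153) and Ier5 (-0.19, adjusted p = 0.0377) were lower. Fos, the usual partner of Jun, had a difference of -0.23 (adjusted p = 0.449, or 0.00989 with the block). Of the 18 other clock genes, 5 were lower (27.8%) and 2 higher, or 7 and 5 with the block. The lower ones included Tef (-0.47, adjusted p = 0.00986), Ciart (-0.42, adjusted p = 0.00271), Nr1d2 (-0.31, adjusted p = 0.00707) and Rorb (-0.27, adjusted p = 0.0155), and the higher ones were Rora (0.15, adjusted p = 0.0251) and Npas2 (0.11, adjusted p = 0.0331). Without control replicate 2, limma called 4 of the 26 immediate early genes lower and 2 higher. Of the 18 clock genes it called 5 lower and 1 higher. Maff, Ier5 and Npas2 were then no longer called.

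Metabolism and nutrient sensing were represented by 7 genes, among them Txnip, Arrdc4, Pygm, Stbd1, Slc19a2 and Flcn, with a median difference of -0.61. Txnip, an arrestin-fold protein that binds thioredoxin and restrains glucose uptake (chr3:96557957-96561883), had values of 9.56, 9.47, 9.44 and 9.61 in GRHL2 samples 1 to 4 and 10.44, 10.81, 10.33 and 10.28 in the control samples. The 4 GRHL2 samples lay within 0.17 of each other, and the mean fell from 10.47 ± 0.24 (SD, n = 4) to 9.52 ± 0.080 (SD, n = 4). Txnip shared 19.4% of its exonic bases with the antisense gene Gm15441, and reads there would be set aside in the same way. Arrdc4, a close relative and likewise induced by glucose, had 6.63, 6.79, 6.76 and 6.81 in GRHL2 samples 1 to 4 and 7.59, 7.98, 7.58 and 7.53 in the control samples. This was the widest gap of all 60 genes, 0.71. Pygm, the muscle glycogen phosphorylase, had 6.35, 6.56, 6.27 and 6.32 in GRHL2 samples 1 to 4 and 7.33, 7.71, 7.10 and 7.03 in the control samples. The nearest samples of the groups were 0.47 apart. Stbd1, which tethers glycogen to membranes, fell by 0.61. The thiamine transporter gene Slc19a2 had -0.56, and Flcn, the folliculin gene of the RAG GTPase switch on lysosomes, had -0.54.

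The 3 other arrestin domain genes in the table did not move one way: Arrdc3 was lower (-0.36, adjusted p = 0.0339, and not called without control replicate 2), Arrdc1 was higher (0.51, adjusted p = 0.00124), and the remaining gene was not called. Of 26 further genes of the folliculin and lysosome list, limma called 9 lower (34.6%, against 5.91% of the table) and 3 higher. Lower were Smcr8 (-0.46, adjusted p = 0.00641), which forms a complex with C9orf72, the autophagy enzyme gene Atg3 (-0.45, adjusted p = 0.00692), Vps33a (-0.42, adjusted p = 0.000702) and the autophagy receptor gene Sqstm1 (-0.42, adjusted p = 0.000876). Higher were Wipi1 (0.26, adjusted p = 0.00902), Mitf (0.18, adjusted p = 0.0452, and not called without control replicate 2) and Gpnmb (0.080, adjusted p = 0.00695), the last at a level of 1.42 in GRHL2 samples, a level at which shrinkage is strong. Tfeb (0.083, adjusted p = 0.542) and Tfe3 (0.051, adjusted p = 0.493), factors that folliculin keeps out of the nucleus, were not called.

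Genes that host snoRNAs or build ribosomes numbered 9 (Snhg15, Snhg12, Taf1d, Trmt10c, Zfas1, 2410006H16Rik, 1110038B12Rik, Usp36 and Utp20), with a median difference of -0.71. Snhg15, a noncoding host (chr11:6525591-6528760), had values of 8.33, 8.45, 8.01 and 8.05 in GRHL2 samples 1 to 4 and 9.11, 9.34, 8.92 and 8.88 in the control samples. Replicates 3 and 4 were the lowest in both groups. Snhg12, another noncoding host, had 7.46, 7.80, 7.68 and 7.72 in GRHL2 samples 1 to 4 and 8.45, 8.76, 8.48 and 8.38 in the control samples, and here GRHL2 replicate 1 was the lowest sample. Taf1d, a subunit of the SL1 factor of RNA polymerase I, had 10.16, 10.18, 9.85 and 9.82 in GRHL2 samples 1 to 4 and 10.82, 11.06, 10.62 and 10.57 in the control samples. It holds 8 snoRNA genes, the most of any of the 60. Zfas1, a noncoding host antisense to Znfx1, had 10.15, 10.22, 10.09 and 10.13 in GRHL2 samples 1 to 4 and 10.82, 11.10, 10.79 and 10.72 in the control samples. Znfx1 itself, which shares exonic bases with it, was lower too (-0.41, adjusted p = 0.00731). Trmt10c, a subunit of mitochondrial RNase P, had 8.15, 8.22, 8.05 and 8.01 in GRHL2 samples 1 to 4 and 8.85, 9.12, 8.69 and 8.64 in the control samples. Its samples kept the order seen in Taf1d among the controls.

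2410006H16Rik, a short noncoding host of Snord49a, Snord49b and Snord65 (chr11:62602877-62604807), had 10.94, 10.95, 10.90 and 10.93 in GRHL2 samples 1 to 4 and 11.67, 11.68, 11.55 and 11.51 in the control samples. It had the smallest SD of the 60 genes in GRHL2 samples, 0.023, and the second replicate of the control group did not stand out. 1110038B12Rik, the host of Snord52, had a difference of -0.59. Usp36, a nucleolar deubiquitinase (-0.57), and Utp20, a component of the small subunit processome (-0.52), host no snoRNA. The hosts are drawn together by what their introns hold, and 5 of these box C/D snoRNAs are shown from the GENCODE M21 transcripts (GRCm38), with the C box (TGATGA) and the D box (CTGA) in capitals. They lie at chr11:62603079-62603150, chr11:62603450-62603521, chr11:62604515-62604586, chr17:34950952-34951017 and chr2:167065276-167065365, the first 3 and the last on the plus strand and Snord52 on the minus strand.
Snord49b (in 2410006H16Rik): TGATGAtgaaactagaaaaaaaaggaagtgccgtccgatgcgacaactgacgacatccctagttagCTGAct
Snord49a (in 2410006H16Rik): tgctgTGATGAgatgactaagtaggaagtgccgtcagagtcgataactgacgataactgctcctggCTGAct
Snord65 (in 2410006H16Rik): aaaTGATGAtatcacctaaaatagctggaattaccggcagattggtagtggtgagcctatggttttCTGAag
Snord52 (in 1110038B12Rik): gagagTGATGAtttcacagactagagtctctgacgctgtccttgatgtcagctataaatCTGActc
Snord12 (in Zfas1): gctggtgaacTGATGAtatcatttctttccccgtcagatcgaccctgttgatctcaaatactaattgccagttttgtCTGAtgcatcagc

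Counting annotated snoRNA genes inside the gene and on its strand, which the rule did not use, 8 of the 60 genes were hosts (13.3%), namely Snhg15, Snhg12, Taf1d, Trmt10c, Zfas1, Prpf39, 2410006H16Rik and 1110038B12Rik. The share was 1.44% among 18342 other genes and 1.67% among 10551 other genes within the same range of levels. The remaining 264 hosts of the table had a median difference of -0.056. Limma called 25 lower and 13 higher (9.47% lower, against 5.91% of the table). A lower value was found for 191 of these 264 hosts, and of the 26 noncoding ones among them 4 were called lower (15.4%) and 1 higher. Of the 24 snoRNA genes inside the 60, 9 were themselves in the table, with differences from -0.11 to 0.01. Reads touching exons of both a host and its snoRNA counted for neither, and low values are shrunk. The levels of these snoRNAs are not given here, so the range is no measure of unchanged snoRNAs. On a list of 18 named snoRNA hosts, 6 were not among the genes of the table. Of the 8 others limma called 3 lower (37.5%) and 0 higher (6 and 0 with the block, 1 lower without control replicate 2). They were Snhg17 (-0.45, adjusted p = 0.0185), Snhg6 (-0.34, adjusted p = 0.0363) and Gas5 (-0.31, adjusted p = 0.0329). Of 39 further ribosome assembly factors, 3 were called lower (7.69%), near the 5.91% called lower over the table. These were Dnttip2 (-0.46), Noc3l (-0.44) and Utp18 (-0.38), and the median of the 39 was -0.13. The replicate block, on the same libraries, called 23 of the 39 lower, where it called 13.9% of the table lower. The fit without control replicate 2 called 0.

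Pre-mRNA processing accounted for 9 genes (Ccnl1, Prpf39, Clk4, Pcf11, Pnn, Ythdc1, Ccdc130, Snrnp48 and Rsrc2), with a median difference of -0.52, the smallest of the 7 roles. Ccnl1, the cyclin L1 of nuclear speckles (chr3:65946151-65958249), had values of 9.60, 9.64, 9.48 and 9.55 in GRHL2 samples 1 to 4 and 10.25, 10.60, 10.18 and 10.10 in the control samples. The GRHL2 samples lay within 0.15 of each other. Prpf39, a U1 snRNP factor, had 8.60, 8.64, 8.39 and 8.49 in GRHL2 samples 1 to 4 and 9.19, 9.56, 9.05 and 9.04 in the control samples, and Clk4, a kinase of SR proteins, had 9.04, 9.20, 9.04 and 9.15 in GRHL2 samples 1 to 4 and 9.75, 10.02, 9.60 and 9.59 in the control samples. In all 3 genes control replicate 2 was the highest sample by 0.27 or more. Pcf11, which ends transcription at poly(A) sites, had a difference of -0.55, the speckle protein gene Pnn (pinin) -0.52, the m6A reader gene Ythdc1 -0.52, the spliceosome protein gene Ccdc130 -0.51, the minor spliceosome gene Snrnp48 -0.50 and the SR-rich Rsrc2 -0.50. Ccdc130 differed from the others in that control replicate 2 was the lowest control sample.

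Of 33 further CLK and speckle genes, limma called 9 lower (27.3%, against 5.91% of the table) and 0 higher, and the median was -0.17. With the replicate block 27 of the 33 were lower (against 13.9% of the table), and without control replicate 2 there were 6. Clk1 (-0.49, adjusted p = 0.00353), Nsrp1 (-0.46, adjusted p = 0.00484), Akap8l (-0.39, adjusted p = 0.000889) and Rnpc3 (-0.39, adjusted p = 0.00913) had the largest falls among them. Transcripts annotated with a retained intron were found for 57.4% of the 54 coding genes in the group, against 54.2% of other coding genes and 62.3% of those in the same range of levels. Transcripts annotated for nonsense-mediated decay were found for 33.3%, against 26.4% and 30.9%.

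Zinc finger, chromatin and transcription genes numbered 10, with a median difference of -0.61 and no fall beyond 0.67. Mybl1, the A-Myb factor (chr1:9667415-9700209), had values of 7.66, 7.77, 7.53 and 7.51 in GRHL2 samples 1 to 4 and 8.30, 8.73, 8.05 and 8.08 in the control samples. Zbtb21, a BTB zinc finger repressor, had 7.65, 7.67, 7.39 and 7.61 in GRHL2 samples 1 to 4 and 8.28, 8.51, 8.20 and 8.01 in the control samples, and Zfp850 had 6.32, 6.35, 6.23 and 6.15 in GRHL2 samples 1 to 4 and 6.88, 7.15, 6.90 and 6.78 in the control samples. Control replicate 2 was again the highest in each. Gtf2h1, a subunit of TFIIH, had a difference of -0.65, the retroelement silencing factor gene Resf1 -0.63 and the chromatin remodeller gene Chd2 -0.51. The zinc finger genes Zkscan5 (-0.59), Zfp948 (-0.56), Zfp874a (-0.53) and Zfp958 (-0.50) completed the role. Chd2 shared 19.3% of its exonic bases with other genes. Among 433 genes named Zfp, Zkscan, Zscan or Zbtb with a number, 7 were in the group, and the other 426 had a median of -0.039. Of these 426, limma called 68 lower (16%, against 5.91% of the table) and 15 higher (3.52%, against 10.5%). Many zinc finger genes are near copies of each other, and reads shared between copies could have been dropped in counting.

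The last 10 genes (P2rx7, Plcxd2, Otud1, Map2k3os, Enc1, Tmem236, Filip1l, Fam53c, Serpinb9b and Rap2a) act at the cell surface, in signalling or elsewhere, with a median difference of -0.61. P2rx7, an ion channel opened by extracellular ATP (chr5:122643911-122691432), had values of 6.18, 6.48, 6.0 and 6.01 in GRHL2 samples 1 to 4 and 7.16, 7.62, 7.10 and 6.84 in the control samples. It fell from 7.18 ± 0.32 (SD, n = 4) to 6.17 ± 0.23 (SD, n = 4), with replicate 2 the highest of each group. Plcxd2, which holds a phospholipase C catalytic domain, had 6.42, 6.64, 6.20 and 6.24 in GRHL2 samples 1 to 4 and 7.15, 7.54, 6.97 and 6.92 in the control samples, and the deubiquitinase gene Otud1 had 6.35, 6.69, 6.14 and 6.11 in GRHL2 samples 1 to 4 and 7.10, 7.35, 6.81 and 6.80 in the control samples. Their groups came closer, with gaps of 0.27 and 0.10. Map2k3os, annotated as antisense, had 6.78, 7.14, 6.63 and 6.67 in GRHL2 samples 1 to 4 and 7.48, 7.64, 7.43 and 7.37 in the control samples. None of its exonic bases is shared with another gene. The kelch protein gene Enc1 had a difference of -0.61, Tmem236 -0.61, Filip1l -0.58, Fam53c -0.53, the protease inhibitor gene Serpinb9b -0.51 and the small GTPase gene Rap2a -0.50.

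**Figure D4:**
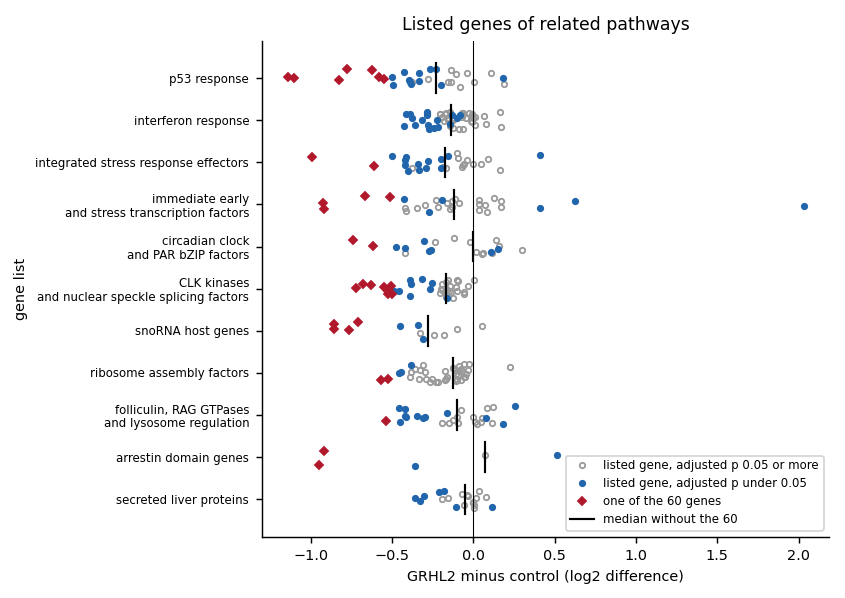
Difference GRHL2 minus control (log2, x axis) of each gene on 11 pathway lists (y axis). Diamonds are genes of the 60, filled circles other listed genes with an adjusted p under 0.05, open circles the rest, and vertical bars the median without the 60, which lies at -0.23 for the p53 response and at 0.069 for the arrestin domain genes.

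Further lists were counted for comparison. Of 52 interferon response genes, of which Ifitm3 falls under a name stem left out, limma called 19 lower (36.5%) and 0 higher. With the block it called 29 and 0. Over the table it called 5.91% lower, or 13.9% with the block. Of the 26 integrated stress response effectors outside the 60, limma called 12 lower (46.2%) and 1 higher. Sqstm1 (-0.42) and Creb5 (-0.42, not called without control replicate 2) were among the lower, and Stc2 (0.41) was the higher one. Of 20 secreted liver proteins, 6 were lower (30%) and 1 was higher (5 and 0 without control replicate 2). No gene of the 60 was on the Epith-Signature, cholangiocyte, hepatocyte, monopolar polarity or epithelial polarity lists of the study, which hold 655, 44, 284, 23 and 36 genes of the table (3.51%, 0.236%, 1.52%, 0.123% and 0.193% of it).

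The sequence features that the rule did not use were then read for the group. RefSeq promoter windows (GRCm38.p6, 250 bases before to 50 after the start) were found for 51 of the 60 genes, 59 windows in all, and for 12832 other genes (16262 windows). Motifs were searched on both strands. The cAMP response element (TGACGTCA) was in 9 of the 59 windows (15.3%), against 2.76% of all 16321 windows. It was found in Plk2, Dusp8, Snhg15, Ccnl1, Zbtb21, Clk4, Flcn, Zfp874a and Ccdc130, which spread over 6 of the 7 roles. The E-box (CACGTG) was in 13 windows (22%), against 9.08% of all windows, and was held by Arrdc4, Snhg15, Zfp365, Bhlhe41, Otud1, Prpf39, Zbtb21, Oser1, Gtf2h1, Eda2r, Fas, Utp20 and Gadd45g. Matches were counted without masking, so that matches to different motifs may share bases. Sites of the element are shown with up to 11 bases on either side. In the order printed they begin 62, 107, 63, 88, 18, 65, 49 and 10 bases before the RefSeq start. Those of Zbtb21 and Ccdc130, printed last, begin at bases 1 and 42 of the RefSeq transcript. The RefSeq starts of Dusp8 and Clk4 lie inside the genes as GENCODE annotates them.
Plk2 (chr13:110394971-110395000, plus): agcgctcgccgTGACGTCAcgaggccccgc
Dusp8, upstream copy (chr7:142095373-142095402, minus): gcccgctccgcTGACGTCAcctgcccccga
Dusp8, downstream copy (chr7:142095329-142095358, minus): ttggctgcaggTGACGTCAggggctttttc
Snhg15 (chr11:6528830-6528859, minus): cccaggggcgcTGACGTCAgtgtcttggag
Ccnl1 (chr3:65958249-65958278, minus): tgtcggcgtggTGACGTCAgggcggaagcg
Clk4 (chr11:51263038-51263067, plus): cccgccgtcccTGACGTCAcagacccctcg
Flcn (chr11:59810070-59810099, minus): aatgtcagtttTGACGTCAcccctgcagaa
Zfp874a (chr13:67451616-67451645, minus): ctgcagcacggTGACGTCAcaggtctgcac
Zbtb21 (chr16:97962604-97962633, minus): ctggtgtgggaTGACGTCAaattcaagatg
Ccdc130 (chr8:84270353-84270372, minus): tggtggaggcgTGACGTCAg

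The other motifs followed. The CCAAT box (CCAAT) was in 42.4% of the windows of the group and 36.9% of all windows, the TATA box (TATAAA) in 13.6% and 8.28%, the GC box (GGGGCGGGG) in 25.4% and 19%, the AP-1-type site (TGANTCA) in 5.08% and 6.04%, the ATF4-type site (TGATGNAA) in 1.69% and 2.35%, and the p53 decamer in 6.78% and 7.11%. The ETS-type site (CCGGAAGT) was in 1.69% and 6.68%. The GRHL-type site (AACCNGTT) was in none of the 59 windows and in 1.88% of all windows, which says only that these letters do not occur in those 300 bases. The windows of the group had a median GC content of 61.3%, against 59.7% for the others. A match is a description of the letters, not a bound site.

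Outside the group, genes with these motifs had differences near 0. The 411 other genes with a cAMP response element had a median difference of -0.014, and limma called 37 lower (9%) and 31 higher (7.54%), whereas over the table it called 5.91% and 10.5%. The 1373 other genes with an E-box had a median of 0.001, with 9.76% called lower and 9.83% higher.

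The 3' UTRs differed in an AU-rich element. The nonamer TTATTTATT, which marks short-lived mRNAs, was in the annotated 3' UTR of 10 of 54 coding genes (18.5%), against 6.83% of other coding genes and 7.29% of those in the same range of levels. The 10 genes were Plk2, Mdm2, Dusp8, Trp53inp1, Zfp365, Plcxd2, Trmt10c, Csrnp1, Enc1 and Ccdc130. The 3' UTRs of the group were also longer, with a median of 1218 bases against 892 and 977. Per kb of 3' UTR, the group had a median of 1.78 copies of the letters ATTTA, against 1.08 and 1.23. The part of length in the share with the nonamer was not tested. The 1022 other genes with the nonamer had a median difference of 0.008, and 6.16% were called lower and 15.3% higher. Exonic GC content was 48% at the median, against 50.2% and 50%. The 60 genes were on 19 chromosomes, with no pair of them within 1 Mb.

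**Figure D5:**
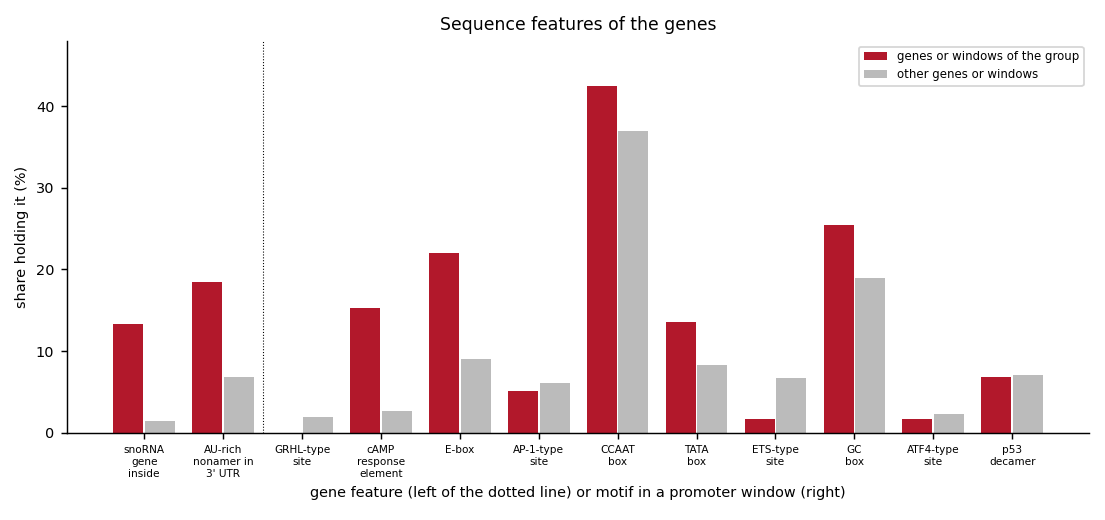
Share (%) with a feature in the group (red) and among the others of the table (grey): a snoRNA gene inside the gene (60 and 18342 genes), an AU-rich nonamer in the 3' UTR (54 coding genes of the group and the other coding genes), and 10 motifs (59 and 16262 promoter windows of 300 bases). The group stands above the others for snoRNA genes (13.3% and 1.44%), the nonamer (18.5% and 6.83%), the cAMP response element (15.3% and 2.71%) and the E-box (22% and 9.03%).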

How the data were processed

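The 8 RNA-seq samples were assigned to groups and replicates from their labels. Reads had been aligned by the authors to mm10 (HISAT2) and assigned to exons irrespective of strand (HTSeq, union mode). The authors dropped genes with fewer than 10 reads in all and related the rlog values to transcript length. Their account of these steps begins with public data sets and was assumed to cover these samples. The authors used HISAT2 2.2.1, HTSeq 0.9.1 and DESeq2 1.40.2, as named in the submitters' processing notes, while the methods of the study give other versions of HISAT2 and DESeq2. The table is named for FPKM, yet the values that the authors deposited are log2 values, ranging from -2.85 to 18.01 with 4.81% below 0. The number of columns of per-sample values that were not used was 0. Depth per sample is unknown.

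All genes were tested with limma 3.58.1 in R 4.3.3 (2 group means, moderated variances that follow the mean level, calls at a Benjamini-Hochberg adjusted p under 0.05), and the code was tested on simulated data. The study describes the replicates as biologically independent, whereas the labels name no cultures, and the p-values measure the spread between these samples. Deviations from the group mean were shared by GRHL2 and control samples of equal number (Pearson's r across genes 0.474, 0.565, 0.549 and 0.645 for replicates 1 to 4), and the pairing rests on these numbers and correlations. The samples also fell into 2 sets, replicates 1 and 2 and replicates 3 and 4. Pairs of unequal number within a set reached 0.344 to 0.602, those across sets lay at -0.399 or lower, and GRHL2 replicate 3 correlated more with control replicate 4 than with control replicate 3.

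The members and lists were chosen with earlier results of these data known. The naming rule asked for per-sample values of the 25 largest falls and of the 3 largest falls of each role, the 3 genes on either side of the threshold, and up to 4 called genes per direction of a list. Cdkn1a, Fos, Tfeb, Tfe3 and Znfx1 were named beyond it, as were the snoRNAs and the promoter sites printed, after their values were seen. The per-sample values of Csrnp1 and Egr1 were also printed beyond it. Gene features came from GENCODE M21 (GRCm38), matched by symbol for 18402 of 18671 genes and all 60 members. The p53 decamer is the half-site of 3 purines, C, 2 A or T, G and 3 pyrimidines. Alternatives were equal upper quartiles, equal sums, a replicate block, differences in replicates 1 and 2 or 3 and 4 alone, each sample left out, no trend, a mean value of at least 5, thresholds of -0.4 and -0.6 and, chosen after seeing the data, list counts without the members and without control replicate 2, and values without replicate 2 of both groups. The values of 1 member are not reported here.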

Additional observations from a re-analysis of the deposited data

Results flagged for a closer look

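In 11 of 216 groups of 4 samples (members, Grhl2 and named list genes, in control and in GRHL2 samples), 1 sample lay far from the other 3 of its group by Dixon's criterion, where chance flags about 1 in 20 groups, or about 11. In each the distant sample was replicate 2 and the highest of its group. In control replicate 2 the values were 6.32 for Bhlhe41 (nearest control sample 5.86), 7.98 for Arrdc4 (7.59), 9.12 for Resf1 (8.74), 8.37 for Zkscan5 (7.96), 7.61 for Zfp874a (7.45) and 8.48 for Fam53c (8.14). The same library was distant for the list genes Bbc3 at 9.66 (nearest 9.33), Rorb at 3.92 (3.65) and Arrdc3 at 8.75 (8.41). In GRHL2 replicate 2 it was Jun at 8.13 (nearest GRHL2 sample 7.65) and Ciart at 7.29 (7.06).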

How the results depend on the processing

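Over the 12 alternatives run on each member, 714 of 720 differences stayed within 1 SD of the main value and 6 moved. The 6 were those of Trp53inp1, Eda2r and Flcn when the first or last 2 replicates were taken alone. The rule itself fixes their sign when samples are left out. Equal upper quartiles and equal sums shift every difference alike, by 0.023 and 0.024, so this count is no measure of stability. Of 600 values of named list genes 507 kept their call, 93 lost it and 0 reversed. With the replicate block, limma called 2589 genes lower and 3396 higher, and 29 interferon, 16 immediate early, 35 CLK and speckle and 25 ribosome assembly genes lower, members included; on the other pathway lists the block moved the count of genes called lower, members included, by less than 1.5 times. With equal upper quartiles 3064 genes were called higher. With a mean value of at least 5, 715 genes were called higher, and 7 interferon and 3 secreted liver genes lower. Without the trend 3 ribosome assembly genes were lower. With 1 sample left out, 690 to 1036 genes were called lower (1104 in all), with 722, 690 and 719 without GRHL2 replicates 1, 3 and 4 and 691 without control replicate 1, and the count of ribosome assembly genes ran from 1 to 9 (5 in all), with 3, 9, 1 and 1 without GRHL2 replicates 1 to 4 and 1 without control replicate 1 or 2. Snhg and other listed snoRNA hosts numbered 4 to 9 (7 in all), with 4 without GRHL2 replicate 3 or control replicate 1. With 1 sample left out, the rule found 39 to 78 genes (60 in all), with 39 without control replicate 2. It found 50 with equal upper quartiles and 49 with equal sums, all of them among the 60. At thresholds of -0.4 and -0.6 it found 132 and 36. When each GRHL2 sample had only to be below the control sample of its number, it found 62. The cause was not tested. Unknown depth limits the reading of low genes, whose differences the rlog shrinks.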
